A study of Mus musculus with 9 samples.

Results

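The genes described here are the cadherins, the protocadherins and the catenins, the families behind calcium-dependent adhesion between cells, in mouse embryonic fibroblasts (MEFs). They were taken by name: symbols of the form Cdh with a number, every Pcdh gene, every Ctnna, Ctnnb and Ctnnd gene, and Fat1, Fat3, Fat4, Dchs1, Celsr1, Celsr2 and Jup. Of the 29915 genes in the table, 111 had such a name, and the 58 with at least 90 counts summed over the 9 libraries are the members. Just inside that minimum lay Pcdh1 with 96 counts and Pcdhb14 with 100, and just outside it lay Pcdh10 with 77 counts and Cdh26 with 73. Among the other 53 genes, 15 had no count in any library.

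Messenger RNA of 1 MEF line called mutator in the labels was compared with that of 1 wild-type (WT) MEF line, in 5 mutator and 4 WT libraries. Each library came from a well of untreated cells harvested 48 h after plating, and the wells of a line were technical replicates. The series states that its aim was the expression of proteasome subunits, and the labels name neither the allele of the mutator line nor the age or strain of the embryos. Mice of that name commonly carry a Polg gene, for the DNA polymerase of mitochondria, without its proofreading activity. Polg RNA was 102 ± 1.89 CPM, the count scaled to library size, in mutator (SD, n = 5) and 95.9 ± 2.49 CPM in WT (SD, n = 4), and gene counts cannot show the allele.

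With 1 representative line per genotype, the p-values below measure only the spread between wells of those lines, and the genotype cannot be told apart from any other difference between the lines. The libraries held 32045662 to 49511365 counts in mutator and 26341230 to 36238653 counts in WT. Levels are CPM with library sizes scaled by TMM, differences are log2 fold changes, mutator over WT, written with ± and their standard error (SE), and the threshold is an adjusted p of 0.05 from the edgeR quasi-likelihood test over all 13345 genes tested. As these are RNA levels of whole wells, fewer cells of a type and less RNA per cell cannot be told apart.

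Classical cadherins span the membrane and bind the same cadherin on the neighbouring cell through calcium-stabilised extracellular repeats. Their tails bind β-catenin or plakoglobin, which recruit α-catenin and through it actin, while p120-catenin holds the cadherin at the surface, and β-catenin also serves as the nuclear effector of Wnt signalling. Protocadherins lack the catenin-binding tail. The clustered ones lie in tandem arrays and in neurons are expressed in combinations that differ from cell to cell, and Fat, Dachsous and Celsr proteins are giant cadherins of planar polarity. Fibroblasts are known for N-cadherin (Cdh2) and cadherin-11 (Cdh11), and E-cadherin (Cdh1) is the cadherin of epithelia.

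The promoters of 4 members with large differences are shown at an annotated start, and which start these cells used was not tested. Each window runs from 250 bases before to 50 bases after the gene's start in RefSeq (GRCm38.p6), 5′ to 3′ on the gene's strand, and for these genes that start lies inside the outermost bounds given below from the same build. Capitals mark the E-box CAGGTG or its complement CACCTG, 6 bases that Snail and Zeb repressors of cadherin genes bind.
Pcdh7 (chr5:57717831-57718130, plus strand): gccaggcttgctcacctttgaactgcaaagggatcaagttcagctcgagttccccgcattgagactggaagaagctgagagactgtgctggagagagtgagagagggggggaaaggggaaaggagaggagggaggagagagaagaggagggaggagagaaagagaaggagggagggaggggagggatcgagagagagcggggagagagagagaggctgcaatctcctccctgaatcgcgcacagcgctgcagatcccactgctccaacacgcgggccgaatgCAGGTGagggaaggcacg
Cdh23 (chr10:60696441-60696740, minus strand): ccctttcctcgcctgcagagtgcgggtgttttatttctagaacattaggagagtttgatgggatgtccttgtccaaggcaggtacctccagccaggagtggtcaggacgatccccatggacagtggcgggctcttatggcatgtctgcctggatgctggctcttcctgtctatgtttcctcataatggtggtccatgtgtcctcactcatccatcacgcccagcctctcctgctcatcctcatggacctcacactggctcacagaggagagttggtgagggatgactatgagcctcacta
Celsr2 (chr3:108415530-108415829, minus strand): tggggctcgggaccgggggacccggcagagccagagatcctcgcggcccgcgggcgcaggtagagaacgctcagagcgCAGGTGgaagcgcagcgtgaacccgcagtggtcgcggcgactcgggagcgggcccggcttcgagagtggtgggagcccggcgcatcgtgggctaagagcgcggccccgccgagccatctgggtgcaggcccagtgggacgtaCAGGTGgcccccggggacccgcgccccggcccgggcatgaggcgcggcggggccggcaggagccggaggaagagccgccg
Pcdh18 (chr3:49757267-49757566, minus strand): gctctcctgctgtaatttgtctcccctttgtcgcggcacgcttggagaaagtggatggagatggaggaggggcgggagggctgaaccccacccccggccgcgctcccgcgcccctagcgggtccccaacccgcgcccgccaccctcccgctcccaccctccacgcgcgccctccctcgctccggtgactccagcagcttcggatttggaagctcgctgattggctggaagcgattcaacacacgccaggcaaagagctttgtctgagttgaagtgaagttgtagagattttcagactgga
The Pcdh7 window held 1 E-box, starting at position 33 after the start, and the Celsr2 window held 2, starting at positions -172 and -30. The windows of Cdh23 and Pcdh18 held none. On both strands, 20.2% of all 32851 promoter windows in the RefSeq table held the motif. For members not on the chromosome of the protocadherin clusters, 22 windows were found for 18 members. Of these windows 3 held the motif, those of Celsr2, Pcdh7 and Fat1. No window was found for Cdh1, Cdh3, Cdh11, Cdh13, Cdh17, Celsr1 or Dchs1, so their promoters were not searched for it. The windows also differed in CpG dinucleotides, with 11 in Pcdh7, 5 in Cdh23, 40 in Celsr2 and 23 in Pcdh18, against a median of 7 over all windows. A match of letters is a description and says nothing of binding.

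All 58 members passed the filter on low counts and were tested. In mutator 34 were higher and 19 lower, 53 of 58 past the threshold, against 79.9% of all genes tested, of which 40.7% were higher and 39.2% lower. The libraries of the lines did not overlap for 51 of 58 members, against 71.9% of all genes. A change of at least 2-fold past the threshold was found for 25 members that rose and 13 that fell, 65.5% of the members against 17.8% of all genes, for which 11.3% rose and 6.53% fell by that size. Low genes reach 2-fold more often: under a mean of 5 CPM, 29 of 37 members and 39.9% of all genes did, and from a mean of 5 CPM upwards, 9 of 21 members and 10.4% of all genes did. The median log2 fold change of the members was 0.60, against 0.01 over all genes, and the median size of the change was 1.73 against 0.35. The count minimum for members sums over more, and mostly deeper, mutator than WT libraries. It therefore admits low genes more easily when they are higher in mutator, and the filter on all genes differs from it. Its part in the excess of rises and in the median was not tested. From a mean of 5 CPM upwards, 6 members rose and 3 fell by 2-fold, with a median log2 fold change of 0.31. The shares of all genes apply beside every subfamily count below, and counts near them do not set a subfamily apart from other genes.

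**Figure D1:**
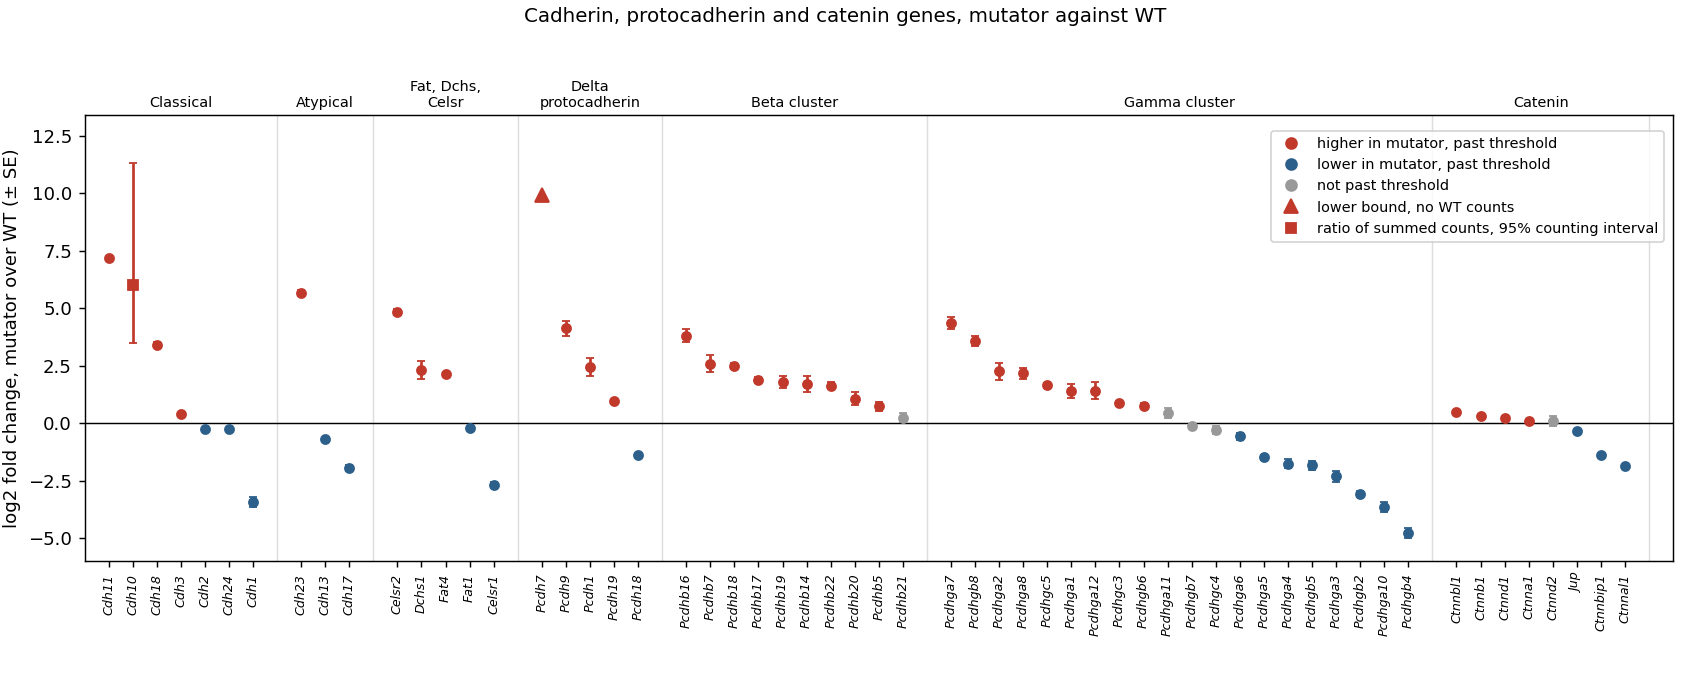
Log2 fold change of mutator over WT (vertical axis) for the 58 members by subfamily, with bars for the SE; red marks members higher in mutator, blue lower and grey not past the threshold, the triangle is the lower bound for Pcdh7 (at least 962-fold) and the square is the ratio of summed counts for Cdh10 with its 95% counting interval. All β cluster members lie above 0, while γ cluster members lie on both sides of it.

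Among the classical cadherins the mutator line carried cadherin-11 RNA that was near 0 in WT and 10.6-fold more cadherin-18 RNA, while E-cadherin RNA was lower in mutator and N-cadherin RNA differed little. All 7 members passed the threshold, 4 higher and 3 lower in mutator, and 3 of those that rose and 1 that fell did so by at least 2-fold. Over all genes tested 79.9% passed, 40.7% higher and 39.2% lower, so passing and its direction do not set these genes apart. By at least 2-fold, 11.3% of all genes rose and 6.53% fell. Cdh11 (chr8:102632095-102785493), the mesenchymal cadherin that joins fibroblasts and bone-forming cells, was at 46.2, 43.3, 43.7, 45 and 41.4 CPM in mutator, against 0.305, 0.316, 0.152 and 0.424 CPM in WT. The lowest mutator well stood far above the highest WT well. The means were 43.9 ± 1.82 CPM in mutator (SD, n = 5) and 0.299 ± 0.112 CPM in WT (SD, n = 4), and the log2 fold change was 7.17 ± 0.096 (adjusted p = 1.59e-20), or 144-fold.

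Cdh18, a type II cadherin best known from brain, was at 13.8, 14, 14, 11.7 and 12 CPM in mutator, against 1.47, 1.29, 0.989 and 1.06 CPM in WT. Every mutator well was higher than every WT well, with a log2 fold change of 3.41 ± 0.11 (adjusted p = 2.86e-15). Cdh10, another type II cadherin of the nervous system, had 111 counts over the 5 mutator libraries and 1 count over the 4 WT libraries, or 0.715, 0.522, 0.367, 0.562 and 0.432 CPM in mutator, against 0, 0.0316, 0 and 0 CPM in WT. At the summed depths the ratio was 64.5, with an exact Clopper-Pearson 95% interval of 11.3 to 2569 that covers counting error only.

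Cdh2, N-cadherin, the main classical cadherin by RNA in both lines, was at 229, 226, 222, 222 and 217 CPM in mutator, against 269.8, 275, 264 and 259 CPM in WT. All mutator wells were lower than all WT wells, but the difference was small, a log2 fold change of -0.26 ± 0.024 (adjusted p = 1.19e-08). Cdh3, P-cadherin, an epithelial cadherin also found in myoblasts, was higher in mutator at 33.4, 33.9, 32.6, 32.3 and 31 CPM, against 24.5, 26.1, 24.4 and 24.5 CPM in WT, a log2 fold change of 0.39 ± 0.037 (adjusted p = 2.18e-08). Cdh24, a type II cadherin that binds catenins, was lower at 18.5 ± 0.865 CPM in mutator and 22.4 ± 0.997 CPM in WT (SD, n = 5 and 4). Its log2 fold change was -0.27 ± 0.046 (adjusted p = 2.58e-05), and relative to the median of chromosome 14 it was -0.03 and no longer past the threshold (adjusted p = 0.524).

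Cdh1, E-cadherin, was low in both lines. It was at 0.277, 0.136, 0.171, 0.0803 and 0.124 CPM in mutator, against 1.72, 1.8, 1.71 and 1.7 CPM in WT, and the wells of the lines did not overlap. The log2 fold change was -3.44 ± 0.21 (adjusted p = 5.31e-11). Cdh5, the cadherin of endothelium, was not a member, with 2 counts over the mutator libraries and none in WT.

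Per kilobase of exonic sequence that no other gene on the same strand covers, which allows levels of different genes to be compared, Cdh2 led with 45 CPM per kb in mutator and 53.9 CPM per kb in WT. In mutator Cdh11 (7.78 CPM per kb) and Cdh3 (7.45 CPM per kb) came next and close to each other, followed by Cdh24 (5.3) and Cdh18 (4.76). In WT, Cdh24 (6.43 CPM per kb) and Cdh3 (5.68) followed Cdh2, and Cdh11 was at 0.053 CPM per kb. As a share of the summed classical cadherin level per kb, Cdh2 made up 63.9% in mutator and 80.6% in WT, Cdh11 made up 11% in mutator and 0.0793% in WT, and Cdh18 made up 6.75% in mutator and 0.655% in WT.

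**Figure D2:**
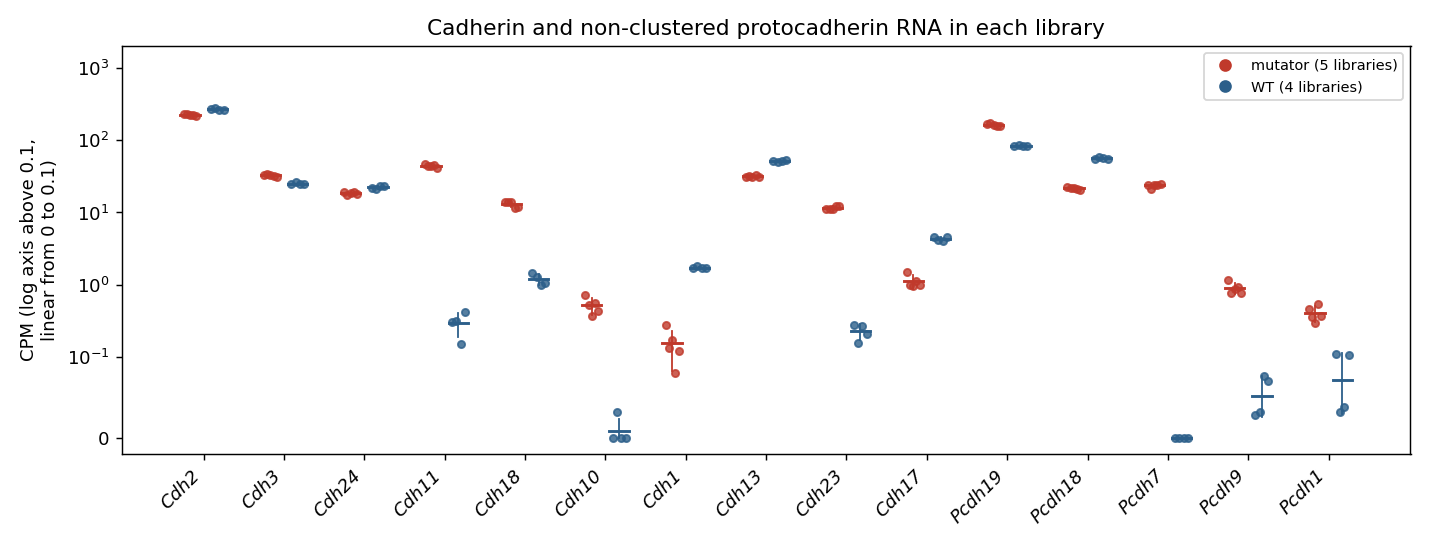
Level in CPM (vertical axis, logarithmic above 0.1 and linear from 0 to 0.1) of each cadherin and non-clustered protocadherin member in the 5 mutator wells (red) and the 4 WT wells (blue), with bars for the mean and SD. The wells of a line lie close together for the higher genes. The means of Cdh10, Cdh11, Cdh18, Cdh23, Pcdh7 and Pcdh9 are at least 10 times higher in mutator. Pcdh7 is at 0 in all WT wells, and Cdh10 rests on 1 WT count.

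The 3 atypical cadherins, which lack the catenin-binding tail, went both ways: Cdh23 rose in mutator, and Cdh13 and Cdh17 fell. Cdh23 (chr10:60302748-60696513), which forms the tip links of hair cells in the inner ear, was at 11.2, 11.1, 11.2, 12.3 and 12.4 CPM in mutator, against 0.278, 0.158, 0.266 and 0.212 CPM in WT. The WT wells were near 0 and the groups were far apart. The log2 fold change was 5.64 ± 0.13 (adjusted p = 1.96e-17), or 50.01-fold. Cdh13, T-cadherin, which is held in the membrane by a lipid anchor and binds adiponectin, was at 31, 32.3, 31.2, 32.5 and 31.4 CPM in mutator, against 51.7, 49.7, 51.4 and 53.5 CPM in WT. The groups did not overlap, and the log2 fold change was -0.70 ± 0.031 (adjusted p = 4.17e-13). Cdh17, the intestinal liver-intestine cadherin, was at 1.52, 0.998, 0.953, 1.12 and 0.988 CPM in mutator, against 4.63, 4.17, 4 and 4.52 CPM in WT, a log2 fold change of -1.95 ± 0.12 (adjusted p = 5.8e-11). Its chromosome 4 had a median of -0.36 over all its genes, and relative to that the change was -1.59.

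The catenins that form the core of the junction complex moved little, with log2 fold changes between -0.37 (Jup) and 0.31 (Ctnnb1). Of 8 catenin members 4 were higher, 3 lower and 1 not past the threshold in mutator, and the 2 that changed by at least 2-fold both fell. Ctnnb1, β-catenin, was at 872, 862, 851, 839 and 843 CPM in mutator, against 685, 694, 690.4 and 685 CPM in WT. The wells did not overlap, with a log2 fold change of 0.31 ± 0.021 (adjusted p = 1.55e-10). Ctnna1, αE-catenin, which links the complex to actin, was at 616, 614, 612, 604 and 613 CPM in mutator, against 564, 564, 576 and 559 CPM in WT. Its log2 fold change was 0.11 ± 0.02 (adjusted p = 5.09e-05).

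Ctnnd1, p120-catenin, was at 342, 336, 325, 318 and 325 CPM in mutator, against 282, 288, 293 and 282 CPM in WT. All mutator wells were higher, with a log2 fold change of 0.20 ± 0.025 (adjusted p = 5.6e-07), though only 1951 of its 6433 exonic bases are free of another gene model on its strand, so its count may miss reads. These directions depend on the scaling. Relative to the median of its own chromosome, the log2 fold change turned to -0.0906 for Ctnnb1 (chromosome 9, median 0.40, adjusted p = 0.000696) and to -0.11 for Ctnnd1 (chromosome 2, median 0.31, adjusted p = 0.000491). For Ctnna1 it was -3.96e-05 (chromosome 18, median 0.11, adjusted p = 0.9998), no longer past the threshold. Jup, plakoglobin or γ-catenin, which can take the place of β-catenin and sits in desmosomes, was lower at 41.6, 46.3, 47.2, 49.96 and 43.7 CPM in mutator, against 61.9, 54.8, 61.8 and 57.5 CPM in WT. The groups did not overlap, and the log2 fold change was -0.37 ± 0.049 (adjusted p = 1.83e-06). Per kb, Ctnnb1 RNA was at 236 CPM per kb in mutator and 189.98 CPM per kb in WT, and Jup RNA at 14.2 CPM per kb in mutator and 18.3 CPM per kb in WT.

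The 2 catenin members with large changes are not part of the core complex, and both lie on chromosome 4. Ctnnal1, α-catulin, a relative of α-catenin, was at 31.1, 29, 28.4, 26.7 and 28.1 CPM in mutator, against 105, 108, 104 and 106 CPM in WT. Ctnnbip1, also known as ICAT, which keeps β-catenin from binding TCF factors, was at 23.3, 21.7, 20.04, 23.1 and 22 CPM in mutator, against 57.5, 56.6, 61 and 56 CPM in WT. In both genes all mutator wells were lower than all WT wells. The log2 fold change was -1.88 ± 0.036 (adjusted p = 2.66e-18) for Ctnnal1 and -1.39 ± 0.042 (adjusted p = 1.32e-15) for Ctnnbip1, and relative to the median of chromosome 4 it was -1.53 for Ctnnal1 and -1.03 for Ctnnbip1. Ctnnbl1, a nuclear protein that binds the splicing machinery and carries catenin-like repeats, rose to 44.6 ± 2.66 CPM in mutator, against 32.2 ± 1.67 CPM in WT, a log2 fold change of 0.47 ± 0.046 (adjusted p = 2.99e-08). Ctnnd2, δ-catenin, mostly of neurons, was at 0.495 CPM in mutator and 0.47 CPM in WT and did not pass the threshold (log2 fold change 0.093 ± 0.23, adjusted p = 0.717).

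**Figure D3:**
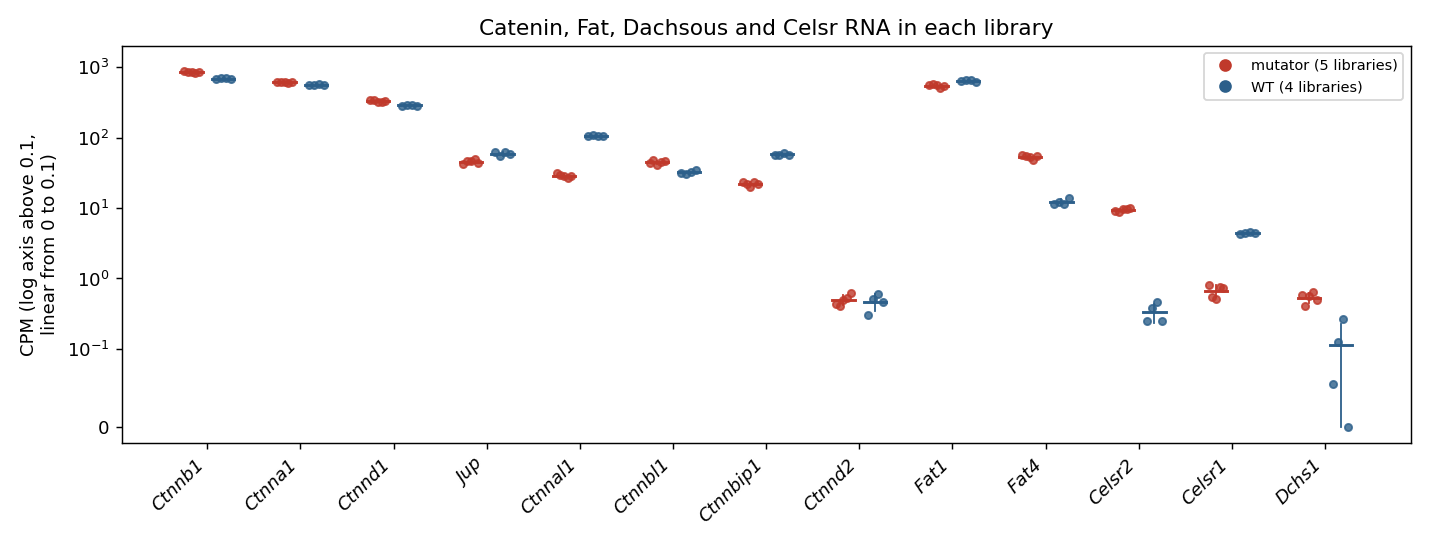
Level in CPM (vertical axis, logarithmic above 0.1 and linear from 0 to 0.1) of each catenin, Fat, Dachsous and Celsr member in the 5 mutator wells (red) and the 4 WT wells (blue), with bars for the mean and SD. Core catenins lie close together in both lines, while Ctnnal1, Ctnnbip1 and Celsr1 stand lower and Fat4 and Celsr2 higher in mutator.

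Of the 5 giant cadherins of planar polarity, Fat4, its ligand Dchs1 and Celsr2 were higher in mutator, and Fat1 and Celsr1 were lower. Fat4 (chr3:38884667-39011992), the receptor for Dchs1 in growth control and planar polarity, was at 56.6, 55.3, 53.5, 47.9 and 54.8 CPM in mutator, against 11.6, 12.2, 11.4 and 13.7 CPM in WT. No wells overlapped, and the log2 fold change was 2.13 ± 0.058 (adjusted p = 2.85e-16), while relative to chromosome 3, whose median was -0.73, it was 2.87. Dchs1 was low, at 0.577, 0.408, 0.562, 0.642 and 0.494 CPM in mutator, against 0.0555, 0.126, 0.266 and 0 CPM in WT. Its highest WT well was below its lowest mutator well, and the log2 fold change was 2.31 ± 0.41 (adjusted p = 5.09e-05).

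The Celsr genes encode core planar polarity cadherins with the build of a G protein-coupled receptor, and the members moved in opposite directions. Celsr2 (chr3:108390848-108416069) was at 8.95, 8.89, 9.73, 9.55 and 9.91 CPM in mutator, against 0.25, 0.379, 0.457 and 0.247 CPM in WT. Celsr1 was at 0.807, 0.545, 0.513, 0.763 and 0.741 CPM in mutator, against 4.22, 4.36, 4.57 and 4.42 CPM in WT. Neither gene's wells overlapped between the lines: the log2 fold change was 4.83 ± 0.13 (adjusted p = 1.8e-16) for Celsr2, or 5.56 relative to chromosome 3, and -2.69 ± 0.12 (adjusted p = 4.6e-13) for Celsr1. Fat1, which binds actin regulators, was at 559, 572, 552, 509.8 and 543 CPM in mutator, against 626, 648, 651 and 623 CPM in WT. Its wells did not overlap, but the log2 fold change was small, -0.22 ± 0.029 (adjusted p = 1.79e-06).

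The non-clustered δ-protocadherins, adhesion molecules of the developing brain that some mesenchymal cells also express, included a gene with no count in WT. Of the 5 members 4 were higher and 1 was lower in mutator. Pcdh7 (chr5:57716145-58133236) was at 23.9, 21.3, 24.2, 24.2 and 24.8 CPM in mutator and had no count in any of the 4 WT libraries. With 4969 counts over the mutator libraries, it was at least 962-fold higher in mutator, taking 3 counts over the summed WT libraries as the floor. Pcdh19, a gene on the X chromosome linked to epilepsy in humans, was at 165, 171, 163, 159 and 156 CPM in mutator, against 82.6, 84.6, 83.5 and 81.6 CPM in WT. The groups did not overlap, and the log2 fold change was 0.97 ± 0.028 (adjusted p = 8.14e-16).

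Pcdh18 (chr3:49743291-49757383) was the δ-protocadherin member that fell, at 22.7, 22, 21.5, 20.9 and 20.7 CPM in mutator, against 55, 58, 56.1 and 55.1 CPM in WT. No wells overlapped, and the log2 fold change was -1.38 ± 0.034 (adjusted p = 9.36e-17), or -0.64 relative to chromosome 3. Pcdh9 was at 0.9 ± 0.157 CPM in mutator and 0.0515 ± 0.0254 CPM in WT (SD, n = 5 and 4), a log2 fold change of 4.12 ± 0.34 (adjusted p = 2.67e-09). Pcdh1, which is also found in airway epithelium, was at 0.406 ± 0.0966 CPM in mutator and 0.0717 ± 0.0427 CPM in WT, a log2 fold change of 2.43 ± 0.39 (adjusted p = 1.5e-05). For both, all mutator wells stood above all WT wells. Below the count minimum, Pcdh10 was also tested and was lower, with 6 counts in mutator and 71 in WT. Its log2 fold change was -4.20 ± 0.37 (adjusted p = 8.96e-09). Pcdh20, Pcdh17 and Pcdh8, not tested, had 15, 7 and 3 counts in WT and none in mutator, and Pcdh11x had none in either line.

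The protocadherin clusters held 30 of the members, all on chromosome 18, whose median was 0.11 over all its genes. None of the 15 α cluster genes reached the count minimum: 6 had no count, and the highest, Pcdha9, had 23 counts in mutator and 4 in WT. In the β cluster, whose genes have a single coding exon each, 9 of 10 members rose in mutator, 8 of them by at least 2-fold, none fell, and 1 did not pass. Over all genes tested 40.7% rose past the threshold, and under a mean of 5 CPM, where all β members lie, 24.9% rose by 2-fold. The count minimum admits such low genes more easily when they are higher in mutator, and its part in the β count was not tested. The summed level of the 10 β members was 13.2 ± 0.691 CPM in mutator (SD, n = 5) and 3.79 ± 0.222 CPM in WT (SD, n = 4), with ranges of 12.3 to 13.8 and 3.52 to 4.03 CPM. Among the β members Pcdhb16 showed the largest change, at 2.17, 1.68, 1.42, 1.91 and 1.57 CPM in mutator, against 0.0278, 0.158, 0.228 and 0.106 CPM in WT. The groups were well apart, with a log2 fold change of 3.81 ± 0.29 (adjusted p = 1.02e-09).

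Pcdhb5 showed the smallest β change past the threshold, at 0.969, 0.93, 0.782, 0.863 and 0.679 CPM in mutator, against 0.611, 0.568, 0.533 and 0.318 CPM in WT, a log2 fold change of 0.73 ± 0.20 (adjusted p = 0.00282). The other members that rose had log2 fold changes between these, such as 1.63 ± 0.14 (SE) for Pcdhb22, 1.88 ± 0.13 (SE) for Pcdhb17 and 2.48 ± 0.14 (SE) for Pcdhb18. Pcdhb21 was at 0.467 CPM in mutator and 0.398 CPM in WT and did not pass (log2 fold change 0.23 ± 0.22, adjusted p = 0.391). The β genes are close copies of each other, so reads may have been split between them or left out.

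In the γ cluster the lines differed in which genes were high. Of 20 members 9 rose, 8 fell and 3 did not pass, with 7 rising and 7 falling by at least 2-fold. Over all genes tested 40.7% were higher and 39.2% lower, and under a mean of 5 CPM 24.9% rose and 15.0% fell by 2-fold. Each γ gene has its own first exon spliced to the same constant exons, so 2116 to 2119 exonic bases of each member are shared with the others, and only reads reaching the first exon assign it. Pcdhgc3, a C-type isoform, was the main γ transcript in both lines, at 135, 135, 137, 141 and 138 CPM in mutator, against 76, 73.5, 80.9 and 73.6 CPM in WT. Its wells did not overlap, and the log2 fold change was 0.85 ± 0.03 (adjusted p = 1.09e-14). It took 87.1 ± 0.676% of the counts over all γ members in mutator (SD, n = 5) and 73.4 ± 0.812% in WT (SD, n = 4). The summed γ level was 158 ± 2.2 CPM in mutator and 104 ± 4.88 CPM in WT.

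The a- and b-type γ members together were lower in mutator, at 15.4 ± 0.713 CPM in mutator (range 14.6 to 16.5) and 25.2 ± 1.62 CPM in WT (range 23.7 to 27.4). Among these members Pcdhgb4 fell most, at 0.0923, 0.159, 0.196, 0.0803 and 0.0618 CPM in mutator, against 3.3, 3, 4.11 and 3.07 CPM in WT. Pcdhgb2 was at 0.646, 0.908, 0.709, 0.502 and 0.371 CPM in mutator, against 4.77, 5.46, 6.01 and 5.58 CPM in WT. In both, every mutator well was below every WT well, with log2 fold changes of -4.78 ± 0.21 (adjusted p = 2.9e-13) for Pcdhgb4 and -3.09 ± 0.15 (adjusted p = 1.05e-12) for Pcdhgb2. Pcdhga7 rose most, at 1.85, 1.82, 1.44, 1.77 and 1.67 CPM in mutator, against 0.0555, 0.158, 0.038 and 0.0707 CPM in WT. Its groups were far apart, with a log2 fold change of 4.33 ± 0.26 (adjusted p = 3.23e-11).

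As shares of the counts over the a- and b-type γ members, Pcdhgb2 made up 4.03% in mutator and 21.7% in WT, Pcdhga5 9.96% in mutator and 17.3% in WT, and Pcdhgb4 0.75% in mutator and 13.3% in WT. In the other direction Pcdhgb6 made up 14.9% in mutator and 5.39% in WT, Pcdhga7 11.1% in mutator and 0.33% in WT, and Pcdhgb8 10.3% in mutator and 0.51% in WT. Along the chromosome the members that rose and those that fell were interleaved. Pcdhga1 and Pcdhga2 were higher in mutator, Pcdhga3, Pcdhga4, Pcdhgb2, Pcdhga5 and Pcdhga6 were lower, Pcdhga7 was higher, Pcdhgb4 lower, Pcdhga8 higher and Pcdhgb5 lower, and then Pcdhgb6 was higher and Pcdhga10 lower. Pcdhgb8 and Pcdhga12, before the C-type genes, were higher, while Pcdhgb7 and Pcdhga11 did not pass. The libraries of the lines overlapped for Pcdhga6 and Pcdhga12. Among the C-type genes Pcdhgc5 rose to 4.07 ± 0.373 CPM in mutator, against 1.32 ± 0.104 CPM in WT (log2 fold change 1.64 ± 0.11, adjusted p = 1.56e-10), and Pcdhgc4 did not pass, at 0.881 CPM in mutator and 1.07 CPM in WT (log2 fold change -0.29 ± 0.17, adjusted p = 0.124). Genes annotated on the opposite strand overlap exons of 8 of the 20 γ members, and the strand setting of the counting is not given in the sources used here. They overlap 2613 exonic bases of Pcdhga10, as many as it does not share with genes on its own strand. In Pcdhgc3 they overlap 1513 exonic bases. The counts of both genes may therefore depend on that setting.

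**Figure D4:**
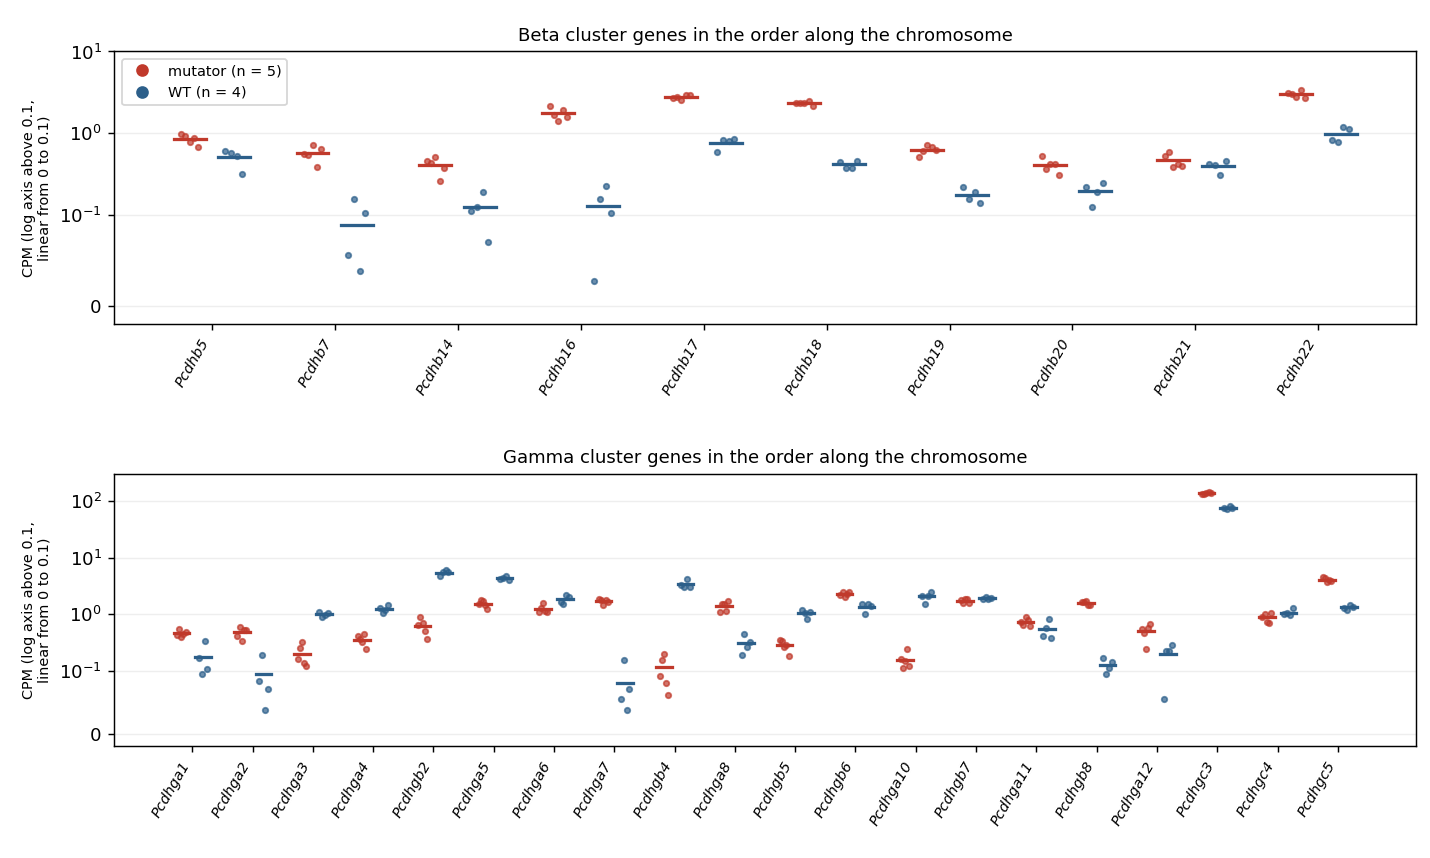
Level in CPM (vertical axis, logarithmic above 0.1 and linear from 0 to 0.1) of the β cluster members (upper panel) and γ cluster members (lower panel) in their order along the chromosome, with 1 point per well of mutator (red, n = 5) and WT (blue, n = 4) and a line for the mean. Mutator means lie above WT means in every β member shown. In the γ cluster the higher line changes several times along the order, with runs of neighbours in the same direction, and Pcdhgc3 is the highest in both lines.

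Genes that work with cadherins were counted in the same way. Over all genes tested, 79.9% passed the threshold, 40.7% higher and 39.2% lower in mutator, with a median log2 fold change of 0.01. These shares apply beside every list below, and counts near them do not set a list apart from other genes. Of 19 adherens junction partners 5 rose and 10 fell in mutator, with a median log2 fold change of -0.15. Plekha7, which tethers p120-catenin to microtubules, was at 3.52 ± 0.355 CPM in mutator and 46.3 ± 0.964 CPM in WT (log2 fold change -3.71 ± 0.054, adjusted p = 4.58e-20), and Pvrl1, nectin-1, was at 36.4 ± 1.81 CPM in mutator and 6.16 ± 0.382 CPM in WT (log2 fold change 2.57 ± 0.055, adjusted p = 1.04e-17). Of 7 desmosome genes tested 3 rose and 4 fell, with a median of -0.63. Perp, a membrane protein of desmosomes, was at 2.42 ± 0.177 CPM in mutator and 120.2 ± 3.04 CPM in WT (log2 fold change -5.64 ± 0.044, adjusted p = 2.38e-23), and Dsc2, a desmosomal cadherin, had 1647 counts in mutator and 2 in WT, a ratio of 478 with a counting interval of 132 to 3952.

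Of 9 transcription factors of the epithelial-mesenchymal transition 5 rose and 3 fell in mutator, with a median of 0.70. Zeb2, which represses Cdh1, was at 59.6 ± 0.587 CPM in mutator and 13.3 ± 1.28 CPM in WT (log2 fold change 2.17 ± 0.046, adjusted p = 9.38e-18), and Foxc2 was at 30.5 ± 2.6 CPM in mutator and 15.2 ± 0.713 CPM in WT (log2 fold change 1.01 ± 0.06, adjusted p = 2.84e-11). The part of these factors in the lower Cdh1 level of mutator was not tested. In the β-catenin destruction complex and its ligase 4 of 10 genes rose and 3 fell, with a median of 0.04. Apc2 was at 3.73 CPM in mutator and 10.8 CPM in WT (log2 fold change -1.52 ± 0.086, adjusted p = 1.3e-11), and Btrc, the ligase subunit that recognises β-catenin, was at 8.24 CPM in mutator and 5.51 CPM in WT (log2 fold change 0.57 ± 0.10, adjusted p = 4.74e-05). Among known β-catenin target genes 4 of 11 rose and 6 fell, with a median of -0.15. Apcdd1, a Wnt inhibitor, had a log2 fold change of -2.50 ± 0.07 (adjusted p = 4.75e-16), and Bmp4, a growth factor, one of -2.19 ± 0.055 (adjusted p = 9.56e-17).

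**Figure D5:**
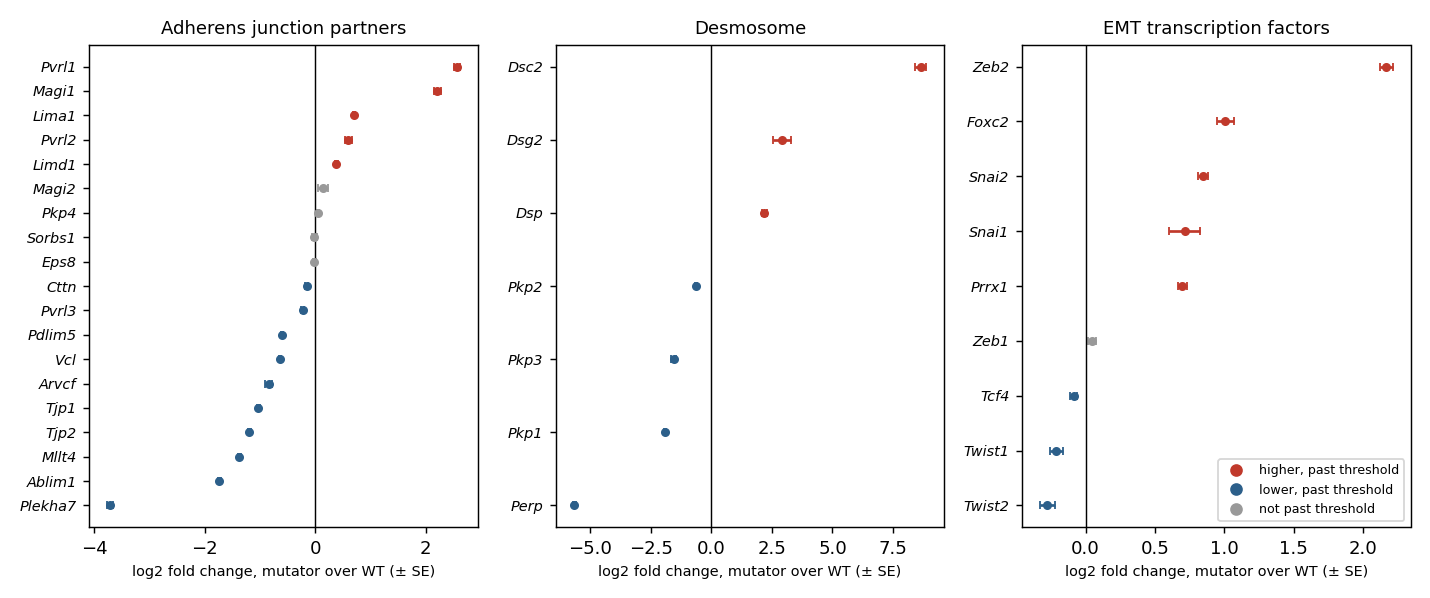
Log2 fold change of mutator over WT (horizontal axis, with its own range in each panel) for the tested adherens junction partners, desmosome genes and transcription factors of the epithelial-mesenchymal transition, with bars for the SE; red marks genes higher in mutator, blue lower and grey not past the threshold. Plekha7 and Perp lie farthest to the left, and Pvrl1, Dsc2 and Zeb2 farthest to the right; the fitted value of Dsc2 rests on 2 WT counts.

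Of 14 planar polarity and Hippo partners of the Fat and Celsr cadherins 7 rose and 5 fell, with a median of 0.20. Vangl2, which works with Celsr proteins, was at 2.56 CPM in mutator and 0.0853 CPM in WT (log2 fold change 4.79 ± 0.27, adjusted p = 9.56e-12), and Fzd6, a Frizzled receptor of the same system, was at 38.5 CPM in mutator and 83.5 CPM in WT (log2 fold change -1.12 ± 0.038, adjusted p = 8.28e-15). Of 12 regulators of the clustered protocadherins, which shape chromatin loops, DNA methylation and silencing there, 1 rose and 9 fell, none by 2-fold, with a median of -0.21. Smchd1, a silencing factor of the clusters, was at 159.8 CPM in mutator and 232 CPM in WT (log2 fold change -0.54 ± 0.028, adjusted p = 3.14e-12). Setdb1, a histone methyltransferase that acts at the clusters, was at 76.5 CPM in mutator and 123 CPM in WT (log2 fold change -0.69 ± 0.027, adjusted p = 7.63e-14), but relative to its chromosome 3 the log2 fold change was 0.046. Of 8 proteases that shed cadherins 3 rose and 3 fell, with a median of -0.02. Mmp14 was at 555 CPM in mutator and 832 CPM in WT (log2 fold change -0.58 ± 0.02, adjusted p = 1.07e-14). Mmp3 ranged from 0.185 to 3.55 CPM over the mutator wells and from 0.106 to 0.194 CPM over the WT wells (log2 fold change 3.56 ± 0.70, adjusted p = 0.000161). Its lowest mutator well lay below its highest WT well, so the lines overlapped.

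Markers of cell types also differed between the lines, in both directions, and their part in the cadherin differences was not tested. Of 9 mesenchymal markers tested 7 rose and 1 fell in mutator, and their summed level was 16240 to 17310 CPM in mutator and 8812 to 9226 CPM in WT, with Col1a2 at 2586 CPM in mutator and 205 CPM in WT and Col3a1 at 166 CPM in mutator and 16.4 CPM in WT. Of 13 epithelial markers 4 were tested, 1 higher and 2 lower, with summed levels of 163 to 180.1 CPM in mutator and 130.3 to 138 CPM in WT. Krt18 was at 1.3 CPM in mutator and 104 CPM in WT, and Krt19 at 170.1 CPM in mutator and 29.3 CPM in WT, while Epcam was near 0 at 0.0647 CPM in mutator and 0.196 CPM in WT. Of 9 neural markers 4 were tested, 3 higher and 1 lower, with summed levels of 14.4 to 16.1 CPM in mutator and 22.7 to 24.1 CPM in WT. Sox2 was at 4.21 CPM in mutator and 17.3 CPM in WT, Tubb3 at 5.05 CPM in mutator and 2.18 CPM in WT, and Sox10 was among 2 with no count. Of 9 endothelial markers 2 were tested, 1 higher, with summed levels of 14.2 to 14.9 CPM in mutator and 10.2 to 10.7 CPM in WT, and 3 markers had no count. Egfl7 was at 13.9 CPM in mutator and 9.33 CPM in WT, and Pecam1 was near 0 at 0.029 CPM in mutator and 0.0385 CPM in WT.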

How the data were processed

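Raw counts per gene were deposited by the authors for poly(A)-selected, strand-specific libraries; per the submitters' processing notes they used STAR 2.4.2a, HTSeq and the build mm10. Not given in the sources used here are the annotation, the strand setting and the treatment of reads with several positions, so overlapping genes and close copies are uncertain. Another 5 columns matched no sample here and were not used. Genes were filtered with filterByExpr and libraries scaled by TMM, and edgeR 4.0.16 in R 4.3.3 gave the tests (quasi-likelihood F, two-sided, group as the only term, Benjamini-Hochberg over 13345 genes), and the script was tested on simulated data. Each SE is the absolute log2 fold change over the root of its F value. CPM were computed from the deposited counts. Exon lengths came from GENCODE M21, positions and promoters from RefSeq GRCm38.p6. A gene without counts in a group was set to a floor of 3 counts over that group's summed libraries, and 1 to 3 counts were given as a ratio with an exact interval. Both allow for counting error alone: no molecular identifiers are described, so reads are not independent molecules.

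The members and all gene lists were chosen with earlier results of these data known. Named members are those past the threshold with at least 2-fold and a mean of at least 5 CPM in 1 line, 15 genes of known role where they are members, and the highest and lowest change of each subfamily; from each other list the 2 largest changes with a mean of at least 1 CPM were named. Other genes named were chosen after their values were seen. Replicate counts differed by more than sampling noise in all 16 pairs (2.49 to 12.4 for chi-square over its degrees of freedom), and all 9 libraries were kept apart. Alternatives were RLE or upper quartile scaling, no filter or a stricter one, DESeq2 1.42.0, chromosome medians, a replicate block and leaving out each well.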

Additional observations from a re-analysis of the deposited data

Results flagged for a closer look

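Groups of 4 or 5 libraries, 54 in all, were examined for a library far from the others by Dixon's ratio. The WT group of Pcdh7, with no count in any library, had no spread and was not tested. Among the rest, 2 passed the 95% critical value, and chance gives about 1 in 20 groups. For Pcdh7 the lowest mutator library, replicate 2, was at 21.3 CPM, and its gap to the next was 0.754 of the range of the 5 mutator libraries (critical value 0.71). For Cdh3 the highest WT library, replicate 2, was at 26.1 CPM, with a gap of 0.942 of the range of the 4 WT libraries (critical value 0.83). Both stayed on their line's side of the other line's libraries.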

How the results depend on the processing

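Under RLE scaling, DESeq2 and no filter on low counts, 34 members were higher and 19 lower in mutator, 25 and 13 of them by at least 2-fold, as in the values above. Upper quartile scaling gave 35 and 19, and 26 and 13 by 2-fold, with Pcdhga11 gained. Relative to chromosome medians 31 were higher and 21 lower, 25 and 12 by 2-fold; Cdh24 and Ctnna1 were lost, Ctnna1 at a log2 fold change of -3.96e-05 (adjusted p = 0.9998), Pcdhgc4 was gained, and 2 members reversed past the threshold, Ctnnb1 at -0.0906 and Ctnnd1 at -0.11. With a minimum of 10 CPM in 4 libraries, only 20 members and 9255 genes were tested: 12 members were higher and 8 lower, 5 and 3 by 2-fold, and of all genes 610 rose and 321 fell by 2-fold, against 1509 and 871. With no filter, 1372 of 19125 genes fell by 2-fold, against 871. Leaving out each well in turn gave 32 to 35 members higher and 19 lower, 22 to 25 and 13 by 2-fold, with 56 to 58 members tested. Same-numbered wells did not deviate together (correlations -0.0798 to 0.0267), so no effect shared by equal numbers was seen. Such correlations cannot exclude that the numbers pair the wells. A fit with a replicate block over replicates 1 to 4 gave 34 members higher and 19 lower, 25 and 13 by 2-fold, and 5336 genes higher and 5121 lower, 1479 and 867 by 2-fold. Depth limits the low members, since a member at 0.1 CPM rests on a few counts per library.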

Other observations

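Below the count minimum, several cadherin genes had most of their counts in 1 line, and 4 of the 53 genes still passed the filter of the test. Of those, Cdh26, Pcdh10 and Pcdhgb1 were lower and Pcdhb9 was higher in mutator past the threshold. Cdh26, an epithelial cadherin, had 1 count over the mutator libraries and 72 over the WT libraries, and Pcdh10, a δ-protocadherin, had 6 in mutator and 71 in WT. Pcdh20, which was not tested, had none in mutator and 15 in WT. Cdh6, a type II cadherin of kidney and neural crest, was not tested either and had 50 in mutator and none in WT. In the clusters, Pcdhb9 had 64 counts in mutator and 3 in WT, Pcdhb4, not tested, had 54 in mutator and 7 in WT, and Pcdhgb1 had 3 in mutator and 56 in WT.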
